A study of Mus musculus with 18 samples.

Results

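The 10 genes described here are targets of the transcription factor NRF2 and members of the aldo-keto reductase family, measured by polyadenylated RNA sequencing in NIH 3T3 cells, a line of mouse embryonic fibroblasts. They are Akr1c12, Akr1c13, Akr1b8, Nqo1, Hmox1, Gclc, Gclm, Txnrd1, Srxn1 and Slc7a11, and all 10 were found among the 22019 genes of the table and above its lowest value in at least 3 libraries, as were 16021 genes in all. Akr1c12 and Akr1c13 were picked for a rise in SUN1L libraries seen earlier in these data, so their differences are given as a description with no test. The other 8 were named as well-known NRF2 targets to see whether that response moved with the pair, and these 8 were tested.

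NRF2, encoded by Nfe2l2, is a transcription factor that is held at low levels by KEAP1, an adaptor that hands it to a ubiquitin ligase. Oxidants and electrophiles modify KEAP1, NRF2 then accumulates, pairs with a small MAF protein and binds antioxidant response elements near genes for glutathione synthesis, thioredoxin recycling, quinone reduction and haem breakdown. Aldo-keto reductases are NADPH-dependent enzymes that reduce aldehydes and ketones, and several of them are among the targets of NRF2.

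Cells carried 1 of 2 doxycycline-inducible constructs. SS-HA-SUN1L-KDEL (SUN1L) is the lumenal domain of the SUN1 protein with an HA tag, retained in the endoplasmic reticulum, which disrupts the LINC complex that joins the nucleus to the cytoskeleton, and SS-GFP-KDEL (KDEL) is a retained GFP that served as the control. Each construct was its own retrovirally transduced, puromycin-selected line, and the KDEL line was also sorted for GFP, so construct and line cannot be told apart. Every group received doxycycline (1 μg/ml) and spent 48 hr on a soft gel of 1 kPa or a stiff one of 308 kPa. The 6 groups of 3 libraries were KDEL cells on 1 kPa (libraries 4, 16 and 28) and on 308 kPa (8, 20 and 32), SUN1L cells on 1 kPa (3, 15 and 27) and on 308 kPa (7, 19 and 31), and, also on 308 kPa, KDEL cells given either the inhibitor Y27 at 25 μM (12, 24 and 36) or blebbistatin, a myosin II inhibitor, at 10 μM (10, 22 and 34). By number the libraries form 3 runs, from 3 to 12, from 15 to 24 and from 27 to 36, that each hold all 6 groups once, but no source used here says what a run shares. The RNA came from whole cultures, in which fewer cells of a type and less RNA per cell cannot be told apart.

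Library 34 carried labels that disagree, naming an empty vector and Y27 in one field and blebbistatin in another. It was placed by the field for myosin inhibition. The table has no column numbered 34, and the column used for library 34 was matched by its heading, an empty vector with Y27, and is numbered 35. Blebbistatin values are therefore also given without it. Values are the authors' normalised signal per gene, with 1 as the lowest value, and an estimated 12670000 to 19460000 read pairs stood behind a library. Sun1, whose lumenal domain is part of the SUN1L construct, had 38452 to 82617 units of signal in the 6 SUN1L libraries and 2785 to 3799 in the other 12, as the labels say. Fibroblast markers were high in every library (summed signal of 7 genes 546573 to 882332), whereas Krt18 and Ttr, markers of epithelium and liver, were at the lowest value of 1 in all 18. Cdh1, Cd68 and Cdh5, markers of epithelial, myeloid and endothelial cells, were measured at 88.0 to 311.0, 58.7 to 304.2 and 7.00 to 234.4. Libraries 3, 7 and 8 stood apart by low signal of all 16 division genes examined (Mki67, a proliferation marker, 822 to 1320 against 8365 to 15960 in the other 15), and values without these libraries are given with the comparisons.

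Akr1c12 and Akr1c13 encode a pair of near-identical hydroxysteroid and aldehyde reductases, and how alike their messages are bears on every value below. On GRCm38, Akr1c13 lies on the plus strand of chromosome 13 at chr13:4191184-4205596 and Akr1c12 on the minus strand at chr13:4268172-4279433, 62.6 kb apart and with Akr1c19 between them. Their coding sequences (GENCODE vM1 on NCBIM37, 972 bases each) aligned without gaps and were identical at 935 positions, or 96.2%, with 37 differences and a longest identical run of 228 bases. Akr1c12 was 72.4% identical to Akr1c14 and 73.9% to Akr1c18, the other Akr1c genes with signal in all 18 libraries. Of the 50-base windows of the Akr1c12 transcript, the read length used, 347 of 1216 (28.5%) also occurred in Akr1c13, so a single read from these windows could not be assigned by sequence. No 50-base window of the Akr1c12 coding sequence was shared with Akr1c14 or Akr1c18. The stretch of 120 coding bases that tells the pair apart best, bases 291 to 410, holds 14 of the 37 differences, and they are shown in capitals:
Akr1c12: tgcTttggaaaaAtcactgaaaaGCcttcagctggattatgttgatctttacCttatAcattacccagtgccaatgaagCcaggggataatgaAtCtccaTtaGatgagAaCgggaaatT
Akr1c13: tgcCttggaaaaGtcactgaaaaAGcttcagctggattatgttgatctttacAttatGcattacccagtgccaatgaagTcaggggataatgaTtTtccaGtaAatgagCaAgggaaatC

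The likeness extended upstream of both genes. The 200 bases that begin 250 bases before the RefSeq start site (GRCm38.p6, chr13:4279450-4279649 on the minus strand for Akr1c12 and chr13:4190937-4191136 on the plus strand for Akr1c13) matched at 188 of 204 aligned columns, or 92.2%. The same stretch of Akr1c12 matched those of 6 other members at 39.0% to 48.2%. Both are shown because the values of the pair, given below, go in opposite directions, with capitals for bases that differ or have no partner in the alignment:
Akr1c12: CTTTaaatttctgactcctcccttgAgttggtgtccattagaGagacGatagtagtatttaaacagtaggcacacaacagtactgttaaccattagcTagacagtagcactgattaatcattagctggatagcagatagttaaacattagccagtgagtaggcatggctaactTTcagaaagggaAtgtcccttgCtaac
Akr1c13: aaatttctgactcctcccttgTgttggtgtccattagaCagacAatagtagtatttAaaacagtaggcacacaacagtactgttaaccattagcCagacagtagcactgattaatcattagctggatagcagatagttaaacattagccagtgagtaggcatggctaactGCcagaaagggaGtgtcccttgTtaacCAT

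Letters of the antioxidant response element were searched on both strands as TGACNNNGC and TGAGNNNGC in windows of 300 bases (250 before to 50 after each RefSeq start site). Either occurred in 9128 of 32851 windows (27.8%), TGACNNNGC in 12.4% and TGAGNNNGC in 17.6%. Windows were held for 8 of the 10 members (all but Hmox1 and Gclc), and 6 of the 8 (Akr1c12, Akr1c13, Gclm, Slc7a11, Txnrd1 in 1 of its 3 windows, and Srxn1) held a match, while those of Nqo1 and Akr1b8 held none. Akr1c12 and Akr1c13 held the same 9 letters, at -96 and -99 bases from their start sites. These 30-base stretches, on the strand of each gene with the match in capitals, show it beside those of genes for glutathione synthesis and thioredoxin recycling, chr13:4279476-4279505 (minus), chr13:4191078-4191107 (plus), chr3:122245413-122245442 (plus), chr10:82859104-82859133 (plus) and chr2:152105469-152105498 (plus):
Akr1c12: cattagccagTGAGTAGGCatggctaactt
Akr1c13: cattagccagTGAGTAGGCatggctaactg
Gclm: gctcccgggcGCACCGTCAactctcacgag
Txnrd1: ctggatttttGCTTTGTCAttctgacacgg
Srxn1: aaattcacccTGAGTCAGCggccgggcgcg
In Gclm and Txnrd1 the match lies on the opposite strand. A match of letters is a description and not evidence of binding, and binding was not measured here.

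In SUN1L cells the 2 Akr1c genes moved in opposite directions. Akr1c13 signal was 43.1, 69.2 and 79.6 in the KDEL libraries on 1 kPa and 313.2, 350.3 and 216.2 in the SUN1L libraries on 1 kPa. The values on 308 kPa were 110.3, 68.8 and 72.5 in KDEL cells and 350.5, 347.7 and 243.9 in SUN1L cells. Every SUN1L library was above every KDEL library on both gels, by 2.19 on the log2 scale (SE 0.31) on 1 kPa and 1.91 (SE 0.31) on 308 kPa, or 4.58-fold and 3.75-fold. Akr1c13 was picked for this rise in these libraries, so the separation is a description and no support for it. Groups did not overlap for 14.5% of the tested genes on 1 kPa and 4.29% on 308 kPa.

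Akr1c12, which was picked for the same rise, was lower instead. Its signal was 237.8, 208.0 and 287.3 in KDEL cells and 71.2, 101.5 and 35.1 in SUN1L cells on 1 kPa. On 308 kPa it was 333.2, 260.4 and 280.6 in KDEL cells and 93.4, 118.2 and 64.2 in SUN1L cells. Again the groups did not overlap, now with SUN1L below: the log2 difference was -1.92 (SE 0.37) on 1 kPa and -1.69 (SE 0.37) on 308 kPa. Within each of the 3 runs, Akr1c13 was higher and Akr1c12 lower in SUN1L cells on both gels. Both genes were picked on these libraries, so this too is a description. Without libraries 3, 7 and 8 the differences over both rigidities were 2.08 for Akr1c13 and -1.81 for Akr1c12, against 2.05 and -1.80 with them.

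Because the pair shares 50-base windows and may share reads, their sum was also examined. The summed signal was 281.0, 277.2 and 366.9 in KDEL cells and 384.4, 451.8 and 251.2 in SUN1L cells on 1 kPa. For 308 kPa the sums were 443.4, 329.2 and 353.1 in KDEL cells and 443.9, 465.9 and 308.1 in SUN1L cells. The groups overlapped on both gels, and the summed signal differed by 0.20 and 0.10 on the log2 scale, far less than either gene. Akr1c13 thus made up 21.4% ± 3.53 (SD, n = 6) of the sum in KDEL cells without inhibitor (15.4% to 25.0%) and 79.6% ± 3.86 (SD, n = 6) in SUN1L cells (74.6% to 86.0%). These shares rest on few reads. Divided by the signal of 1 read pair in its library, Akr1c12 stood at between 18 and 59.7 read pairs in SUN1L libraries and Akr1c13 at between 23 and 51.0 in KDEL libraries without inhibitor. Whether the authors' filter on mapping quality removed reads from the shared windows was not tested.

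**Figure D1:**
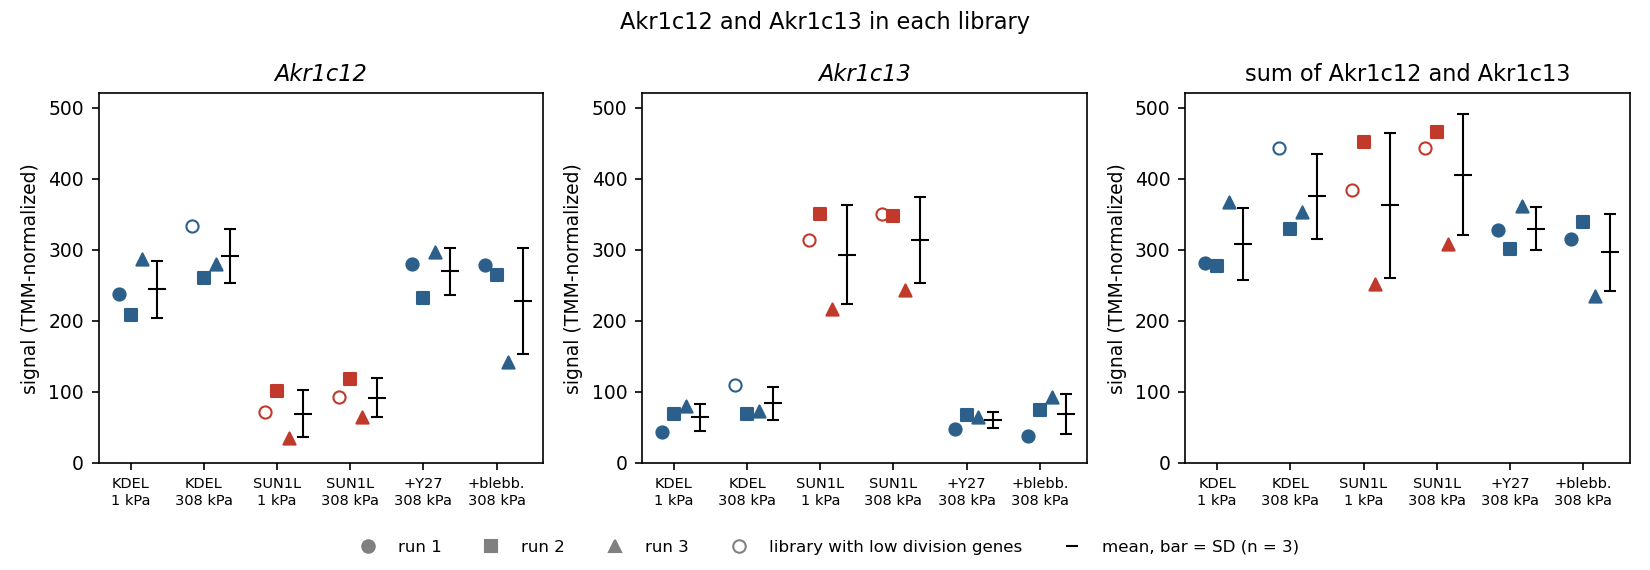
Signal of Akr1c12, Akr1c13 and their sum (vertical axes, the authors' normalised units) in the 6 groups of 3 libraries. Symbols mark the run of library numbers, open symbols libraries 3, 7 and 8, and bars the mean and SD. SUN1L libraries (red) were all below the KDEL libraries without inhibitor (blue) for Akr1c12 and all above for Akr1c13, and overlapped them for the sum.

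With an inhibitor Akr1c12 was above Akr1c13 in every library. Y27 libraries had 280.1, 232.8 and 296.8 units of Akr1c12 and 47.5, 68.0 and 64.5 of Akr1c13, and Akr1c13 was 18.3% ± 4.07 (SD, n = 3) of the sum. All 3 Y27 values of Akr1c13 were below those of untreated KDEL cells on 308 kPa (log2 difference -0.46, SE 0.38), whereas Akr1c12 overlapped (-0.11, SE 0.27). Blebbistatin libraries had 278.1, 264.1 and 142.1 units of Akr1c12 and 37.4, 74.6 and 92.9 of Akr1c13. Library 34, the last of these and the one with conflicting labels, stood apart, since Akr1c13 was 39.5% of the sum there and 11.8% to 25.0% in the other 11 libraries without SUN1L. With it, Akr1c12 differed by -0.41 and Akr1c13 by -0.36 on the log2 scale from untreated KDEL cells on 308 kPa, and without it by -0.10 and -0.62. Without library 8, the untreated library with the highest Akr1c13 signal, that gene differed by -0.25 with Y27 and -0.14 with blebbistatin. Between 308 kPa and 1 kPa, Akr1c12 differed by 0.26 (SE 0.37) in KDEL and 0.49 (SE 0.37) in SUN1L cells, and Akr1c13 by 0.40 and 0.11 (SE 0.31 for both). The groups overlapped in all 4 of these cases, and without libraries 3, 7 and 8 the differences were 0.16 and 0.54 for Akr1c12 and 0.19 and 0.08 for Akr1c13.

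Of genes with at least median signal, those whose pattern over the 18 libraries was most like that of Akr1c13 were Sun1 (Pearson r 0.94 of the log2 signal), Rad1 (0.91), Brd2 (0.89), Prr13 (0.86) and Tmem63b (0.83). For Akr1c13 the libraries form 2 sets, SUN1L and the rest, so any gene that separates these sets scores high. Sun1 itself is part of the construct.

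The 8 tested members did not move with the pair. None was called in SUN1L cells on 1 kPa, on 308 kPa or over both rigidities by limma (adjusted p under 0.05 and at least 2-fold), where 0.0874%, 0.0624% and 0.181% of the 16021 tested genes were called, and 0 of the 8 had an unadjusted p under 0.05, against 4.54%, 2.53% and 6.80% of the tested genes. Their median log2 difference over both rigidities was -0.04, with a range of -0.26 to 0.08, and the median of all tested genes was -0.02. Without libraries 3, 7 and 8 the range was -0.23 to 0.04, and 1 of the 8 (Srxn1, lower) had an unadjusted p under 0.05 over both rigidities. The 95% interval of the difference lay within 2-fold either way for all 8, as it did for 76.9% of the tested genes. On 1 kPa and on 308 kPa it did so for 7 of the 8 (62.0% and 65.5% of the tested genes), Hmox1 being the exception on both gels. For a single gene, the exact permutation test of groups of 3 cannot reach a p below 0.1, so all p-values here come from limma's model across genes, and the libraries were 3 biological replicates per group by the methods.

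Nqo1, on the minus strand at chr8:107388225-107403206, encodes a quinone reductase that is often used as a readout of NRF2. Its signal was 1575, 2382 and 2689 in KDEL and 1866, 2294 and 1826 in SUN1L cells on 1 kPa. Nqo1 on 308 kPa was 1493, 2707 and 1519 in KDEL and 1886, 2110 and 1488 in SUN1L cells. The groups overlapped on both gels, and the log2 difference was -0.12 on 1 kPa and -0.02 on 308 kPa (SE 0.26 for both; 95% interval over both rigidities -0.48 to 0.34, adjusted p = 0.964 by limma). The genes most like Nqo1 over the 18 libraries were Sgcb (r 0.82), Vcan (0.77), Trib2 (0.76), Fchsd2 (0.74) and Cic (0.74), and none of them was on the lists of NRF2 targets.

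Hmox1, at chr8:75093591-75100596, encodes the haem oxygenase that opens the haem ring, and it varied more by run than by group. Its signal was 8420, 11682 and 3922 in KDEL and 9784, 9473 and 5016 in SUN1L cells on 1 kPa. On 308 kPa it was 9838, 11961 and 4740 in KDEL and 11666, 10460 and 5324 in SUN1L cells. The third value, from the run of libraries 27 to 36, was the lowest in every group: the 6 libraries of that run had 2154 to 5324 and the other 12 had 8420 to 14712. Within runs, SUN1L differed from KDEL by -0.30 to 0.36 on 1 kPa and by -0.19 to 0.25 on 308 kPa on the log2 scale, higher in 2 of 3 runs on each gel. The difference over both rigidities was 0.08 (SE 0.34, adjusted p = 0.983 by limma). With Y27, Hmox1 was 2154 to 10302, which overlapped untreated KDEL cells on 308 kPa, with a log2 difference of -0.50. It was lower with Y27 in all 3 runs, by log2 differences of -1.14 to -0.15 from untreated cells and -0.84 to -0.22 from blebbistatin.

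Gclc and Gclm encode the catalytic and modifier subunits of glutamate-cysteine ligase, which takes the first step of glutathione synthesis with cysteine that Slc7a11, the light chain of the cystine/glutamate antiporter, helps to supply. Gclc (chr9:77754535-77794485) ranged from 2297 to 3442 in SUN1L and 2497 to 3083 in KDEL cells on 1 kPa, and from 2076 to 4375 and 2629 to 3595 on 308 kPa. Gclm (chr3:122245557-122269984) ranged from 2957 to 4072 and 3154 to 4111 on 1 kPa, and from 2945 to 5091 and 3191 to 4793 on 308 kPa, in the same order. Both overlapped everywhere, with log2 differences over both rigidities of 0.05 (SE 0.19) for Gclc and -0.03 (SE 0.16) for Gclm.

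Slc7a11 (minus strand, chr3:49892526-50443614) was the member that rigidity separated. In KDEL cells its signal was 245.8, 216.9 and 306.3 on 1 kPa and 594.7, 365.6 and 338.2 on 308 kPa, so every library on the stiff gel was above every one on the soft gel. The log2 difference was 0.72 (SE 0.26, unadjusted p = 0.0187, adjusted p = 1 by limma). It was the only 1 of the 8 whose groups did not overlap in this comparison (4.78% of the tested genes, 2.13% with the higher group on 308 kPa) and the only one with an unadjusted p under 0.05 (1.37%), and none was called, as was true of all tested genes (0%). The highest value came from library 8, one of the 3 with low division genes, and without that library the difference was 0.47 (unadjusted p = 0.0844 by limma). Without libraries 3, 7 and 8 together it was also 0.47, now with an unadjusted p of 0.0340, and the interaction described next was -0.36 (unadjusted p = 0.216 by limma). Without library 16, the lowest on 1 kPa, it was 0.61 (unadjusted p = 0.0687). In SUN1L cells Slc7a11 was 392.6, 275.7 and 317.4 on 1 kPa and 464.2, 312.9 and 324.9 on 308 kPa. These groups overlapped, the difference was 0.15 (SE 0.26), and the interaction of construct and rigidity was -0.57 (SE 0.37, unadjusted p = 0.151, adjusted p = 1 by limma), so a different response of the 2 lines was not shown. None of the 8 was called between the gels in SUN1L cells or in the interaction by limma (0% of the tested genes for both), and none had an unadjusted p under 0.05 there (1.93% and 0.905%) or groups that did not overlap between the gels in SUN1L cells (4.77%).

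Txnrd1 and Srxn1 belong to the thioredoxin and peroxiredoxin system, the first as the reductase that recycles thioredoxin and the second as sulfiredoxin, which repairs overoxidised peroxiredoxins. Txnrd1 (chr10:82859206-82897724) was 19022, 17469 and 16583 in KDEL and 17204, 17451 and 15926 in SUN1L cells on 1 kPa. The 308 kPa values were 19006, 17558 and 17623 in KDEL and 18575, 17758 and 16074 in SUN1L cells. It was the steadiest member by interval, which for its difference over both rigidities ran from -0.25 to 0.13 on the log2 scale. Srxn1 (chr2:152105516-152111376) was 3923, 4331 and 4110 in KDEL and 2827, 3712 and 3213 in SUN1L cells on 1 kPa. There the SUN1L libraries were all lower, with a log2 difference of -0.35 (SE 0.18, unadjusted p = 0.0739, adjusted p = 0.930 by limma), and Srxn1 was the only 1 of the 8 whose groups did not overlap (14.5% of the tested genes, 7.86% with SUN1L lower). On 308 kPa it was 3189, 4791 and 4222 in KDEL and 2994, 4299 and 3530 in SUN1L cells, which overlapped, as the groups of all 8 did on that gel (4.29% of the tested genes did not). The lowest Srxn1 signals of these 12 libraries were those of the 3 with low division genes. Without them the Srxn1 difference over both rigidities was -0.23 (unadjusted p = 0.0375, adjusted p = 0.614 by limma), against -0.26 (adjusted p = 0.765) with them.

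Akr1b8 (chr6:34354119-34368463), the aldose reductase-like member that was not picked on these libraries, followed neither Akr1c gene. Its signal was 2230, 2358 and 3177 in KDEL and 2279, 2497 and 2969 in SUN1L cells on 1 kPa. On 308 kPa it was 2795, 2526 and 3633 in KDEL and 2329, 2544 and 3600 in SUN1L cells. The groups overlapped on both gels, and the log2 differences were 0.01 and -0.09 (SE 0.21 for both).

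**Figure D2:**
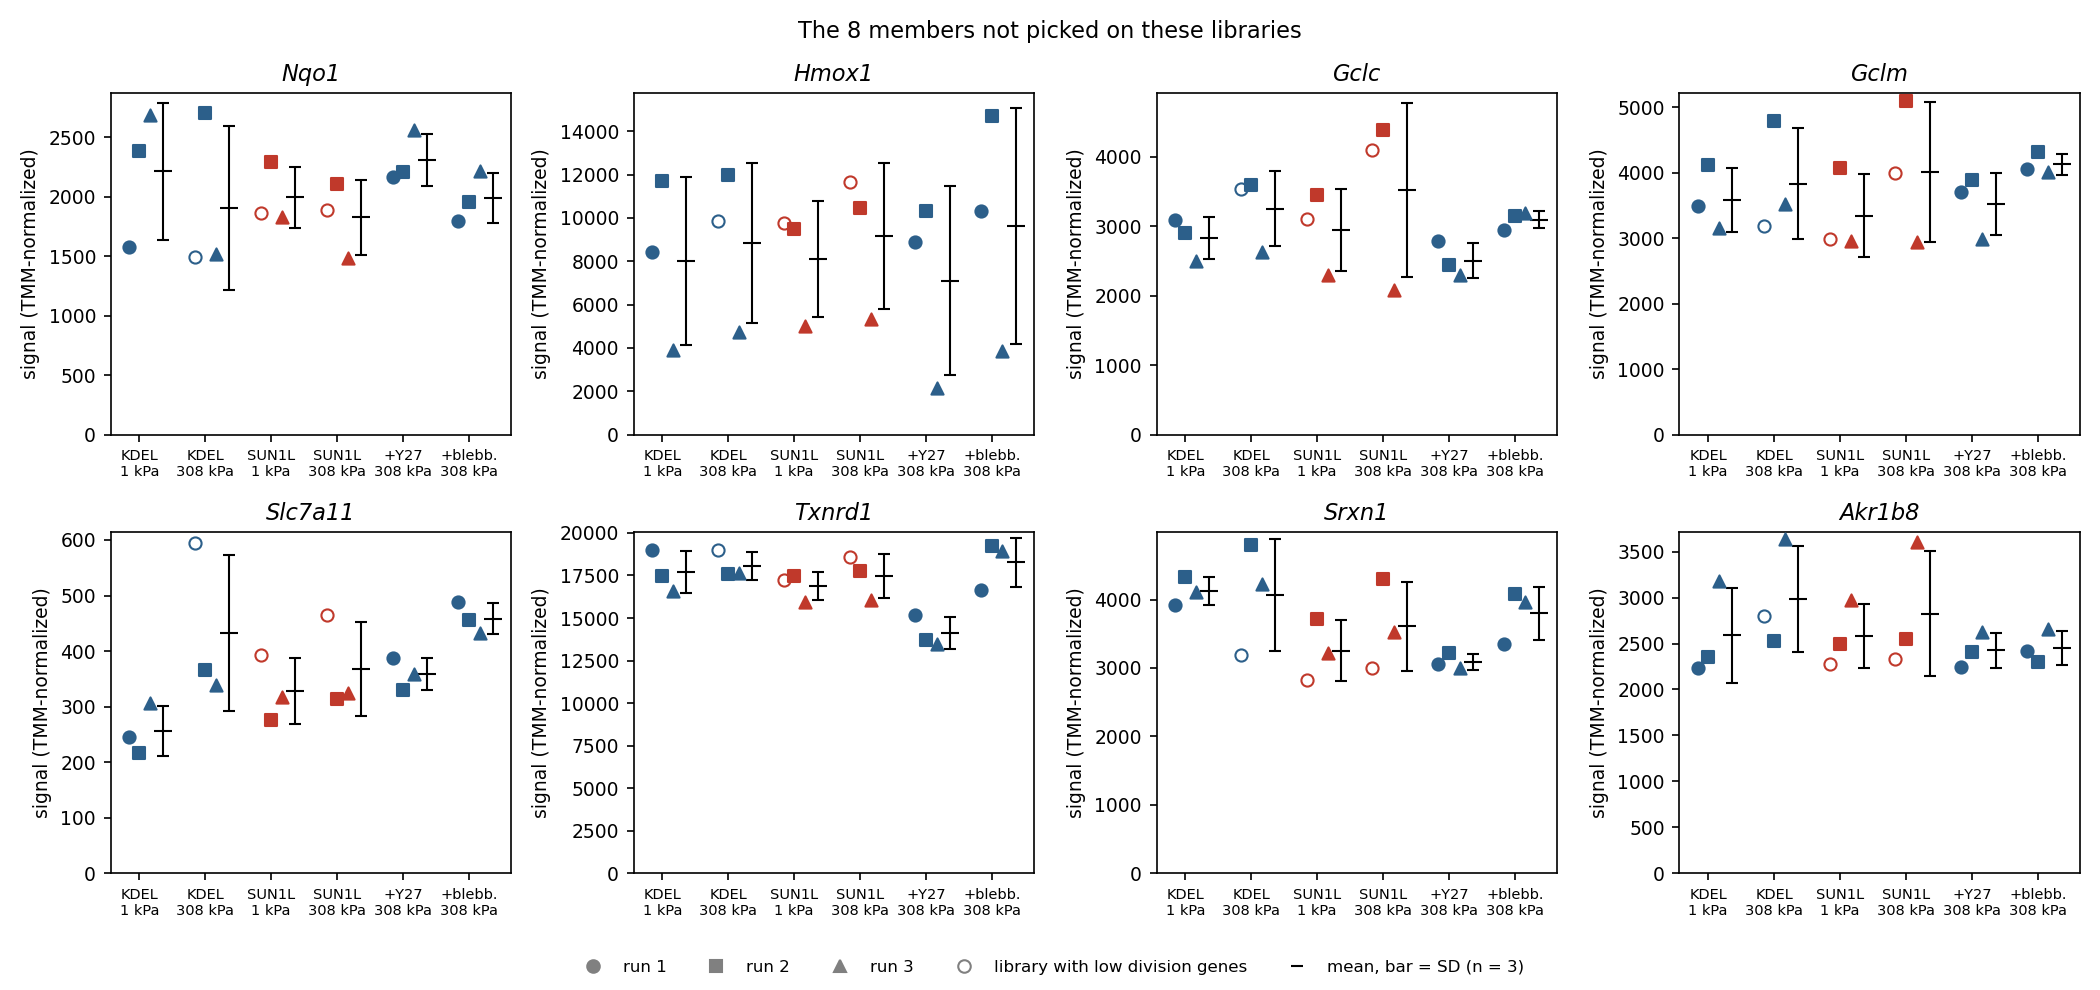
Signal (vertical axes, the authors' normalised units, from 0) of the 8 tested members in the 6 groups of 3 libraries, with symbols for the run, open symbols for libraries 3, 7 and 8, and the mean and SD beside them. SUN1L (red) and KDEL (blue) libraries overlapped for each gene on both gels except Srxn1 on 1 kPa, and the run 3 libraries (triangles) of Hmox1 lay between 2154 and 5324.

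With Y27, 7 of the 8 members had a point difference below 0 against untreated KDEL cells on 308 kPa (47.7% of the tested genes), and none was called by limma (0%). An unadjusted p under 0.05 was reached by 3 of the 8, all lower, where 6.05% of the tested genes reached it in either direction and 2.37% reached it with lower signal. Txnrd1 was 15184, 13722 and 13444 with Y27 and 19006, 17558 and 17623 without, and Txnrd1 was the only 1 of the 8 whose groups did not overlap (8.57% of the tested genes, 3.62% with Y27 lower). The log2 difference was -0.36 (SE 0.10, unadjusted p = 0.00855, adjusted p = 0.707 by limma), or a change of -21.9%, and it lay between -0.39 and -0.32 in the 3 runs. Gclc was 2782, 2432 and 2294 with Y27 and 3527, 3595 and 2629 without, a log2 difference of -0.37 (SE 0.14, unadjusted p = 0.0267, adjusted p = 0.783 by limma). Srxn1 was 3055, 3223 and 2997 with Y27 and 3189, 4791 and 4222 without, a difference of -0.38 (SE 0.15, unadjusted p = 0.0392, adjusted p = 0.789 by limma). For these last 2 genes the groups overlapped by 1 untreated library, library 32 for Gclc and library 8 for Srxn1. Without library 8, Gclc differed by -0.30 (unadjusted p = 0.0820) and Srxn1 by -0.54 (unadjusted p = 0.00171, adjusted p = 0.406 by limma). Whichever of the 9 libraries was left out, the unadjusted p of Txnrd1 stayed at or below 0.0326, whereas those of Gclc and Srxn1 exceeded 0.05 without some of them. Nqo1 was the 1 member above 0, at 2165, 2205 and 2562 with Y27, with a difference of 0.33 (SE 0.23). The longer list of 34 other NRF2 targets did not share this direction. With Y27, 22 of them were above and 12 below 0, with a median log2 difference of 0.06. In that list 1 gene, higher with Y27, had an unadjusted p under 0.05 by limma (6.05% of the tested genes).

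The same 3 genes overlapped untreated KDEL cells with blebbistatin. Txnrd1 was 16637, 19257 and 18948, Gclc 2948, 3145 and 3182, and Srxn1 3350, 4075 and 3963, and for Srxn1 the overlap was with library 8 alone. None of the 8 was called by limma (0% of the tested genes) or had an unadjusted p under 0.05 (4.21% of the tested genes), and none had groups that did not overlap (7.22%). The differences ran from -0.27 for Akr1b8 to 0.13 for Gclm and Slc7a11. Without library 34 the differences of Txnrd1, Gclc and Srxn1 were -0.01, -0.08 and -0.12, against 0.02, -0.06 and -0.08 with it, and that of Hmox1, whose value in library 34 was 3857 against 10339 and 14712 in the other two, moved from 0.02 to 0.58 (unadjusted p = 0.451 by limma). The other 4 differed by -0.33 (Akr1b8), 0.03 (Nqo1), 0.15 (Gclm) and 0.17 (Slc7a11) without it, and the 2 remaining blebbistatin libraries were then below untreated cells for Akr1b8. Without the untreated library 8, Slc7a11 differed by 0.38 (unadjusted p = 0.0150, adjusted p = 0.993 by limma), with the blebbistatin libraries all above, and Srxn1 by -0.25 (unadjusted p = 0.0525 by limma), with them all below, while Gclc and Txnrd1 differed by 0.01 and 0.05. Thus the count of members at an unadjusted p under 0.05 was 0 with all libraries and 1 without library 8, and it was 2 without library 20 (Akr1b8, -0.38, and Nqo1, 0.40). The 4.21% belongs to the fit with all 9 libraries, and shares for the smaller fits are not given here.

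Set directly against each other, Y27 libraries were all below blebbistatin libraries for 5 of the 8 members (Gclc, Gclm, Slc7a11, Txnrd1 and Srxn1), where 9.64% of the tested genes had groups that did not overlap and 4.24% had Y27 below. Point differences were below 0 for 7 of the 8 (47.2% of the tested genes). None was called by limma (0% of the tested genes), and only Txnrd1 had an unadjusted p under 0.05 (2.83% of the tested genes), with a log2 difference of -0.37 (SE 0.10, unadjusted p = 0.00689, adjusted p = 1). Without library 34 it was -0.34 (unadjusted p = 0.0238 by limma), with differences of -1.08 for Hmox1, -0.29 for Gclc, -0.26 for Gclm and Srxn1, -0.40 for Slc7a11, 0.04 for Akr1b8 and 0.30 for Nqo1, and the groups were also apart for Hmox1 (Y27 lower) and Nqo1 (Y27 higher). Without library 8, which enters this comparison through the shared spread only, Txnrd1, Slc7a11 and Srxn1 had an unadjusted p under 0.05. The 2.83% is not the share of that fit. Slc7a11 was 387.2, 329.3 and 359.1 with Y27 and 487.7, 455.6 and 431.8 with blebbistatin, a difference of -0.35 (SE 0.21). Of the 34 other NRF2 targets, 21 were above and 13 below 0 between Y27 and blebbistatin with all libraries. None of these 34 had an unadjusted p under 0.05 by limma. The 2 inhibitors were used at different doses, and their comparisons with untreated cells share the same 3 KDEL libraries.

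**Figure D3:**
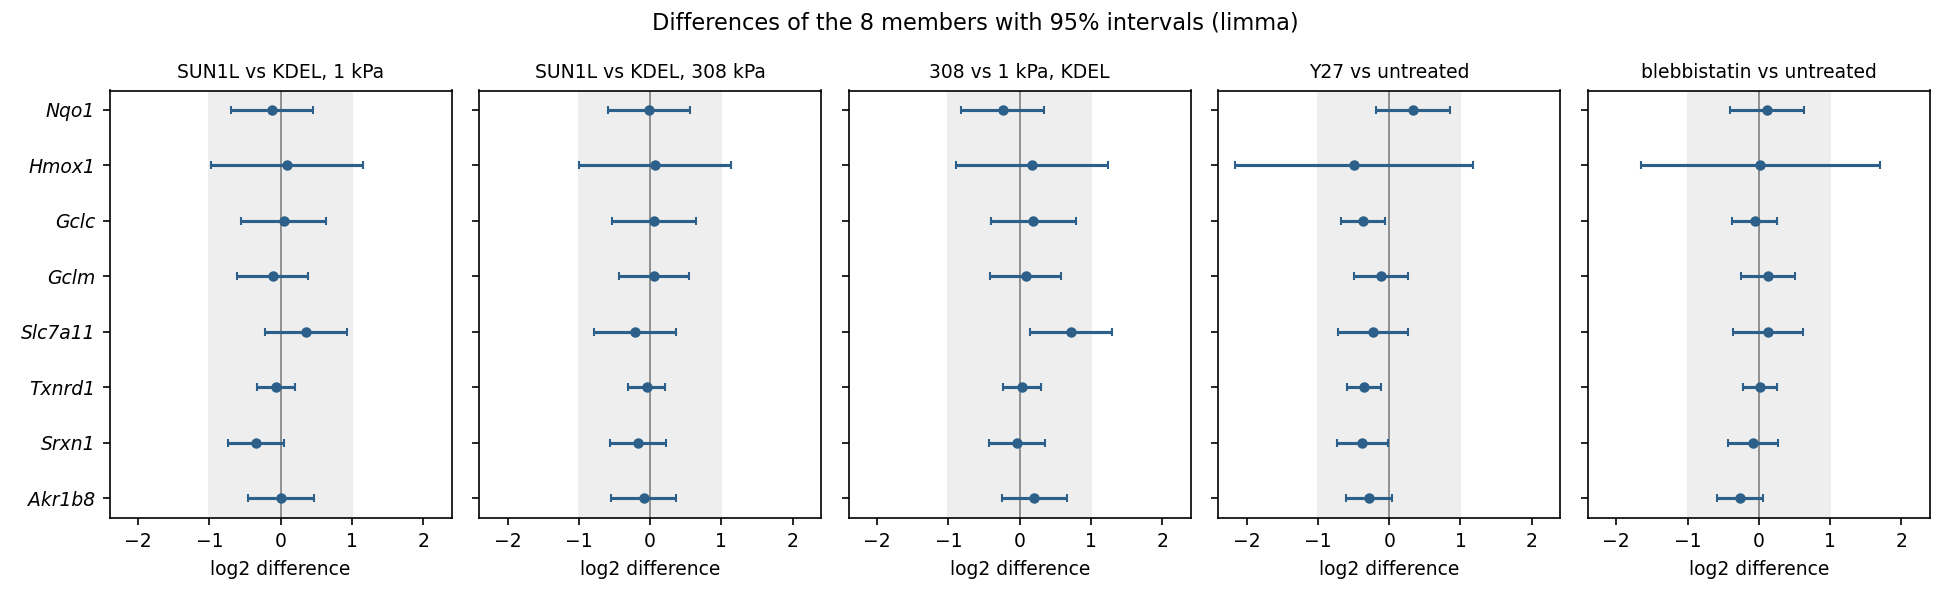
Log2 differences of the 8 tested members (points, with 95% intervals from limma) in 5 comparisons, with the grey band marking 2-fold either way. Intervals that leave 0 are those of Slc7a11 between the gels in KDEL cells (0.72) and of Gclc, Txnrd1 and Srxn1 with Y27 (-0.37, -0.36 and -0.38), and Hmox1 has the widest intervals.

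Levels can be compared between genes only per length. Per kilobase of the longest coding transcript in GENCODE vM1, the median signal over the 18 libraries was highest for Hmox1 (5995), followed by Txnrd1 (4805), Akr1b8 (1850), Nqo1 (1309), Srxn1 (1288), Gclc (880.9) and Gclm (783.0). It was far lower for Akr1c12 (186.0), Akr1c13 (63.0) and Slc7a11 (37.8). The ranges of neighbours in this order overlapped, except for Txnrd1 (3699 to 5299) and Akr1b8 (1642 to 2675) and for Gclm (608.3 to 1052) and Akr1c12 (27.7 to 263.4). In SUN1L cells the mean signal per kilobase was 247.9 for Akr1c13 and 63.7 for Akr1c12, against 60.3 and 211.8 in KDEL cells without inhibitor.

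The regulators of NRF2 gave no called differences either. Of 12 regulators listed, 6 were above and 6 below 0 in SUN1L cells over both rigidities, none was called, none had an unadjusted p under 0.05, and the interval lay within 2-fold for all 12. Nfe2l2 differed by 0.08 (SE 0.19), Keap1 by -0.20 (SE 0.13) and Bach1, a repressor that competes for the same DNA elements, by -0.12 (SE 0.18). With blebbistatin 3 of the 12, all higher, had an unadjusted p under 0.05, namely Bach2, a related repressor (0.51, SE 0.12), and the small MAF genes Mafk (0.58, SE 0.20) and Maff (0.84, SE 0.34), each with an adjusted p of 0.890 by limma. That is 25.0% of the list, against 4.21% of the tested genes. Without library 34 the differences were 0.53, 0.66 and 0.78, and Maff no longer had an unadjusted p under 0.05 (0.101), and without library 8 they were 0.47, 0.60 and 0.40, each with one. With Y27, 1 of the 12 reached it (6.05% of the tested genes), Btrc, a substrate adaptor of a ubiquitin ligase, which was lower by point difference (-0.31, SE 0.13, unadjusted p = 0.0390, adjusted p = 0.789 by limma). Between Y27 and blebbistatin it was again 1 of the 12 (2.83% of the tested genes), Bach2 (-0.67, SE 0.12, unadjusted p = 0.000687, adjusted p = 1 by limma).

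Among 34 other NRF2 targets, 13 were above and 21 below 0 in SUN1L cells over both rigidities, with a median log2 difference of -0.11 and none called by limma. Those with an unadjusted p under 0.05 made up 5.88% of the list, below the 6.80% of all tested genes. They were both lower, Pgd, of the pentose phosphate pathway (-0.16, SE 0.07, adjusted p = 0.730), and Abcg2, a drug exporter (-0.38, SE 0.11, adjusted p = 0.485). The largest differences were those of the glutathione S-transferases Gsta3 (0.50, SE 0.56) and Gstm3 (0.45, SE 0.39), with signals of at most 16.1 units, and of Gsr, glutathione reductase (-0.47, SE 0.21). Gsr was 1298 to 2062 in libraries 3, 7 and 8 and 2101 to 3637 in the other 15, Txn1, thioredoxin, was 9796 to 11423 against 18528 to 30606, and Sqstm1, a cargo receptor that binds KEAP1, was 39935 to 41912 against 14481 to 26764. Their differences between groups therefore moved with these libraries, 2 of which were SUN1L and 1 KDEL. Without these libraries Gsr differed by -0.27, Pgd by -0.21 and Abcg2 by -0.36, and 4 of the 34, all lower, had an unadjusted p under 0.05. The 6.80% belongs to the fit with all 12 libraries, and the share in this smaller fit is not given here.

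Of 14 other aldo-keto reductases, 10 were tested and none was called. In SUN1L cells over both rigidities 3 were above and 7 below 0, with a median of -0.03. Akr1c14 and Akr1c18, the other Akr1c genes with signal in all 18 libraries, differed by -0.51 (SE 0.51) and 0.83 (SE 0.97). Akr1c14 was 161.0 to 221.3 in libraries 3, 7 and 8 and 632.2 to 1335 in the other 15, and Akr1c18 ran from 7.04 to 387.5 over all 18. Akr1e1, a reductase of the same family, was 322.6 to 549.6 and differed by -0.11 (SE 0.13), and Akr1c19 and Akr1c21 exceeded the lowest value in 4 libraries and 1 library, by signals of up to 3.22 and 2.49. Akr1b7, an aldose reductase-like gene, had the largest difference (1.79, SE 1.00, adjusted p = 0.815 by limma), and it was 62.3 to 97.5 in libraries 3, 7 and 8 against at most 16.02 in the others, among which it differed by 1.78 (SE 0.60, unadjusted p = 0.0211, adjusted p = 0.522 by limma). Akr1c6 and Akr1c20 were listed at the lowest value in all 18 libraries. With Y27, Akr7a5, an aflatoxin aldehyde reductase, was higher by 0.32 (SE 0.11, unadjusted p = 0.0210, adjusted p = 0.742 by limma). It was the only 1 of the 10 with an unadjusted p under 0.05 (6.05% of the tested genes). The largest differences from untreated KDEL cells on 308 kPa were those of Akr1c18 (-2.12 with Y27, -1.75 with blebbistatin) and Akr1c14 (1.08 and 1.10). For both genes the groups overlapped. Untreated libraries ranged from 12.97 to 265.5 for Akr1c18 and from 191.2 to 970.5 for Akr1c14.

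**Figure D4:**
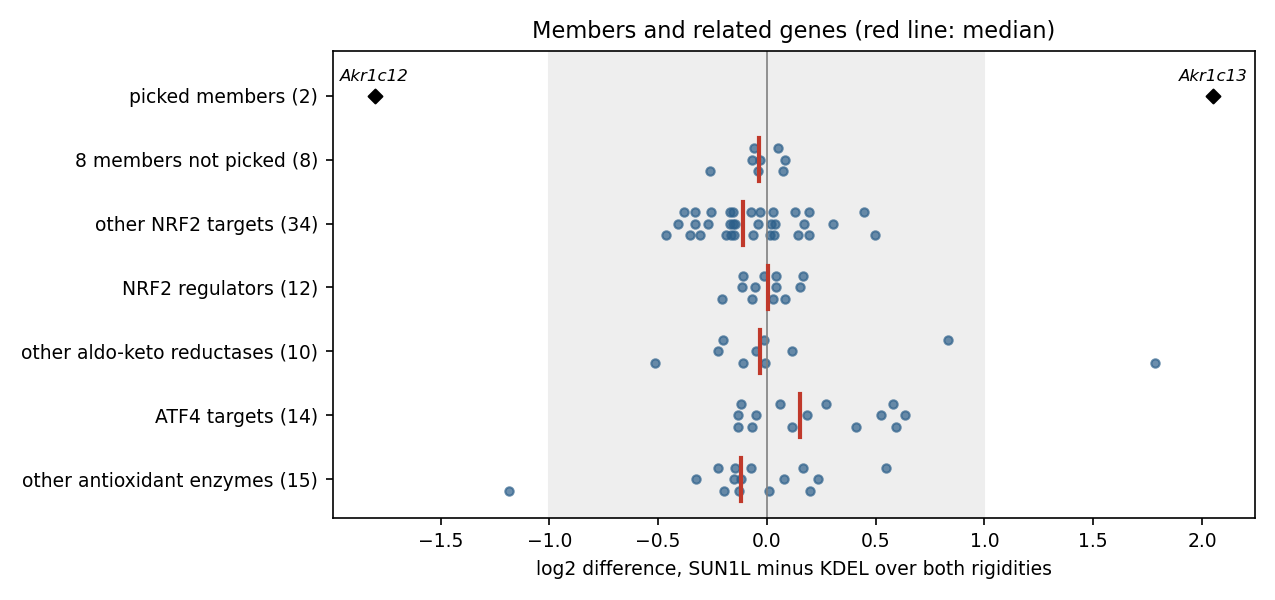
Log2 differences of SUN1L minus KDEL cells over both rigidities (horizontal axis) for the picked pair (diamonds), the 8 tested members and 5 lists of related genes (dots, one per tested gene), with red lines for medians and a grey band for 2-fold either way. Akr1c12 (-1.80) and Akr1c13 (2.05) lie on opposite sides, whereas the 8 tested members run from -0.26 to 0.08.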

How the data were processed

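The authors aligned paired-end 50-base reads with TopHat2 2.0, removed reads of low mapping quality, unpaired reads and duplicates in AvadisNGS, and deposited a normalised signal for each gene in each library (trimmed means of M-values, TMM). The methods name mm9, but gene positions overlapped those of GRCm38 in 99.9% of 20148 genes and those of NCBIM37 in 12.1% of 20547. Most values were not whole multiples of 1 read pair (14.6% within 0.02), so no count test was used, and depth was estimated from the signal of 1 read pair. From the deposited signal, log2(value + 1) was fitted by limma 3.58.1 (R 4.3.3; trended variance, 1 mean per group) over 12 libraries for construct and rigidity and 9 for the inhibitors. Testing took in genes that exceeded the lowest value in at least 3 libraries, p-values were two-sided and Benjamini-Hochberg adjusted over all 16021, and fold changes understate changes of low genes. The fit was also run on simulated data with planted differences above 2-fold and no run effect or libraries of low division genes. That outcome is not given here, and it does not bear on smaller differences. Members and gene lists were chosen with earlier results of these data known. The genes named include all members, the genes most like Akr1c13 and Nqo1, and some list genes at an unadjusted p under 0.05 or with the largest differences. Genes that followed libraries 3, 7 and 8 were picked for naming with their values already known. Not every list gene at such a p is named. For example, 1 other NRF2 target was higher with Y27 and is not named. Nor are 1 other aldo-keto reductase, lower on 308 kPa than on 1 kPa in SUN1L cells, and 1 higher with Y27 than with blebbistatin named for those comparisons. Alignments and motif searches used Biopython 1.88 and RefSeq or GENCODE sequences.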

Additional observations from a re-analysis of the deposited data

How the results depend on the processing

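The count of 0 called members held in 222 of 225 recounts of the 9 comparisons under 32 alternatives, which were other filters on low values (none, or a mean of 10), other pseudocounts (8, 0.1), quantile or upper quartile scaling, a joint fit of all 18 libraries, untrended limma, array weights, a replicate block on runs, other call rules, each library left out, and, chosen after the data were seen, libraries 3, 7 and 8 left out. The exceptions were the unadjusted p under 0.05 alone, with 1 member between the gels in KDEL cells, 3 with Y27 and 1 between Y27 and blebbistatin. By that rule, the Y27 count ran from 1 to 3 with each library left out and from 2 to 5 under the other settings. In the main fit no tested gene was called between the gels, in the interaction or in the inhibitor comparisons (0%). At most 0.181% were called in SUN1L cells. A count of 0 among 8 members was therefore likely beforehand, and its holding says little about them. The labels number libraries and not replicates, so no pairing was assumed in the values reported. With the replicate block, 0 members were called in any comparison, an unadjusted p under 0.05 by limma was reached by 5 members with Y27, 4 between the inhibitors, 2 between the gels in KDEL cells, 1 with blebbistatin and 1 (Srxn1) in SUN1L cells on 1 kPa and over both rigidities. Shares of all tested genes given above are those of the main fits and do not belong to these recounts. The share with the block is not given here, so these counts cannot be read as particular to the members. With Y27 and the block, the 5 members had adjusted p-values of 0.395 to 0.472 by limma. Srxn1 then had an adjusted p of 0.241 on 1 kPa and 0.130 over both rigidities by limma, and it was lower in SUN1L cells in all 3 runs on both gels. With each library left out, the blebbistatin count ran from 0 to 2. In the sum with Akr1c13, the Akr1c12 difference of SUN1L cells turned from negative to 0.20 on 1 kPa, 0.10 on 308 kPa and 0.15 over both rigidities, while in the other alternatives the difference over both rigidities was between -1.97 and -1.47 for Akr1c12 and between 1.92 and 2.24 for Akr1c13. Of 1584 recomputed differences of the 8 tested members, 145 changed sign, all in genes called in neither fit. Few read pairs stood behind the Akr1c pair, and on each gel alone the interval of Hmox1 went beyond 2-fold.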

Other observations

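Targets of ATF4, the transcription factor of the amino acid and endoplasmic reticulum stress response that shares Slc7a11 with NRF2, were examined as a further list. Of 14 genes, none was called in SUN1L cells over both rigidities by limma, and the median log2 difference was 0.15. Atf3, a stress-induced transcription factor, had the largest (0.63, SE 0.25, unadjusted p = 0.0268, adjusted p = 0.659). In libraries 3, 7 and 8, whose division genes were low, Trib3, a pseudokinase, was 2505 to 3475 against 342.0 to 1107 in the other 15. Chac1, which breaks down glutathione, was 2738 to 3126 against 865.4 to 1945, Ddit3, the stress factor CHOP, 2755 to 2867 against 821.1 to 1797, and Cth, which makes cysteine, 328.0 to 575.1 against 39.3 to 173.8. The 3 libraries lay above the other 15 for 6 of the 14 genes, these 4 with Sesn2 (4164 to 5296 against 1446 to 2658) and Slc3a2, the heavy chain that pairs with the Slc7a11 product (9686 to 11696 against 5829 to 8332), and overlapped them for the other 8, such as Shmt2 (6483 to 8267 against 5965 to 12048). They were also apart for genes of other lists, above for 3 and below for 10 of 34 other NRF2 targets. Of 12 NRF2 regulators, 3 were above and 3 below, and all 16 division genes were below. The share over all tested genes is not given here, so the 6 cannot be read as particular to ATF4 targets. Without libraries 3, 7 and 8 Atf3 differed by 0.56 (SE 0.22).

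Of 15 other antioxidant enzymes, none was called in SUN1L cells over both rigidities, and the median difference was -0.12. Sod3, the extracellular superoxide dismutase, had the largest difference (-1.19, SE 0.55, adjusted p = 0.735 by limma). Glrx, a glutaredoxin, was 221.2 to 270.2 in libraries 3, 7 and 8 and 277.8 to 515.3 in the other 15, and the other 14 enzymes overlapped. Without these libraries Sod3 differed by -1.26 (SE 0.54).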
